A study of Mus musculus with 2 samples.

Results

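Cholesterol synthesis was described through 8 genes, Hmgcs1, Mvd, Idi1, Fdps, Fdft1, Sqle, Lss and Insig1, taken by their symbols from the 56980 genes of the deposited matrices. The genes were followed across the crypt, villus, goblet and lymphoid cells of the mouse small intestine in 1 library labelled control and 1 labelled model, made by droplet-based single-cell RNA sequencing. The series title names simulated microgravity, radiation and the compound CB001, but the labels do not say what the model animal received, nor the strain, the age, the number of animals pooled or the stretch of intestine. All 8 symbols were found, each once, and all 8 had reads in both libraries.

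Cells make cholesterol from acetyl-CoA through the mevalonate pathway. Hmgcs1 encodes the cytosolic HMG-CoA synthase, which acts near the start of the pathway. Mvd and Idi1 encode the enzymes that form the isoprenoid units, Fdps joins them to farnesyl diphosphate, and Fdft1 (squalene synthase), Sqle (squalene epoxidase) and Lss (lanosterol synthase) commit them to sterols. Insig1 is not an enzyme: its protein holds the SCAP and SREBP-2 complex in the endoplasmic reticulum when sterols are plentiful, and the gene is itself a target of SREBP, the transcription factor that drives the whole pathway. In the intestine, sterol synthesis is known to be active in dividing crypt cells, while villus enterocytes also take up dietary and biliary cholesterol.

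Promoter sequences from RefSeq (GRCm38.p6, 250 bases before to 50 after the start of transcription) were at hand for 5 of the 8 genes, and 3 are printed because their genes moved together or apart in the results below. Hmgcs1 lies at chr13:119690101-119690400 and Idi1 at chr13:8885356-8885655, and Insig1 at chr5:28071162-28071461, all on the plus strand. Capitals mark the sterol element searched for, TCACNCCAC, and the CCAAT box, each read on both strands, so that a CCAAT box on the other strand appears as ATTGG.
Hmgcs1: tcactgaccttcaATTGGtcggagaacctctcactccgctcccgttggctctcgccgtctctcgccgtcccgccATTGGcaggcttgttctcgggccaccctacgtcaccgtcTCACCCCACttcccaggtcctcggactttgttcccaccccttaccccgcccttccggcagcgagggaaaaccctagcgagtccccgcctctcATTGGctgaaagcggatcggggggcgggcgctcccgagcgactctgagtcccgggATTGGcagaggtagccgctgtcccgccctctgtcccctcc
Idi1: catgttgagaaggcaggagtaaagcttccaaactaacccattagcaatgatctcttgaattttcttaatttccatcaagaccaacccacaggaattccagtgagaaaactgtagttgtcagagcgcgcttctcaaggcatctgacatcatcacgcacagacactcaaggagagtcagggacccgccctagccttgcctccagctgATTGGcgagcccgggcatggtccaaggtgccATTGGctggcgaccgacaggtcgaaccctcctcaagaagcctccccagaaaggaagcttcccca
Insig1: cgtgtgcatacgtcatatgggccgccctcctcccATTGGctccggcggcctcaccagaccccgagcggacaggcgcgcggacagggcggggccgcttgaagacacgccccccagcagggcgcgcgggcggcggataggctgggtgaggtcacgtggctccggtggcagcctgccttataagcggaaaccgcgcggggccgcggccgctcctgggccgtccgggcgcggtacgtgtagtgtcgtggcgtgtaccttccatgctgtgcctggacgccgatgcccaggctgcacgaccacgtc
The letters TCACNCCAC were in 1 of the 5 promoters, that of Hmgcs1, against 1.24% of 32851 mouse promoters of the same length (300 bases). A CCAAT box was in 5 of 5 promoters against 37.4% of all, and a GC box (GGGCGG, both strands) was in 5 of 5 against 35.7%. An E-box (CACGTG) was in 1 of 5, that of Insig1, against 7.15%. These matches describe letters in a window and were not tied to binding.

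The control library held 61370270 unique molecular identifiers (UMIs, tags that each mark a single captured RNA molecule) and the model library 76701215. After filtering, 7329 control and 7913 model cells were kept, with medians of 3636 and 3761 UMIs. Mitochondrial transcripts took a median of 10.8% of the UMIs of control cells and 5.38% of those of model cells. The libraries shared 28 cell barcodes, of which 12 were kept in both. The cells fell into 29 clusters, 25 of which were named by marker genes and carry "-like" names, and the 8 genes and their pathway were left out of the clustering. Levels are UMIs of a gene per 1000000 UMIs of the class (CPM) with exact Poisson 95% intervals, which cover counting error only. With 1 library per group there was no test of the condition, and every difference between libraries lacks a replicate check. A difference was counted as higher or lower when the ratio reached 1.5 times in either direction, its exact 95% interval excluded 1 and the gene had at least 20 UMIs over both sides. In sums over cells, fewer cells using a gene and less RNA per cell cannot be told apart.

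Among classes and clusters of at least 50 cells in a library, tuft cells held the highest summed level of the 8 genes. It was 1045 CPM in control and 905.5 CPM in model tuft-like cells (77 and 59 cells), which sense luminal chemicals. Plasmacytoid dendritic-like cells, on only 39 and 24 cells and so outside the order, held 1049 CPM (913.2 to 1200) and 1274 CPM (1063 to 1515). The summed level was 819.6 and 728.3 CPM in mucus-making goblet-like cells (348 and 328 cells), and 813.4 and 774.8 CPM in hormone-making enteroendocrine-like cells (81 and 146 cells). The intervals of the units in places 2 and 3 overlapped in both libraries (goblet and enteroendocrine cells in the control, enteroendocrine cells and cluster 5 in the model). An unnamed epithelial cluster led by Gsdmc4, Rbp7 and Car4 (cluster 5, 219 and 456 cells) held 703.1 and 773.4 CPM. Crypt stem or transit-amplifying-like cells (624 and 778 cells) held 513.6 and 669.0 CPM. In the control they came after the unnamed cluster 6, of low RNA content, at 607.2 CPM (398 cells), and in the model before it, at 547.3 CPM (843 cells).

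T and plasma cells lay below these values. T cell-like cells (1317 and 2430) held 412.3 CPM in the control and 384.7 CPM in the model library. Plasma cell-like cells (496 and 662) held 193.5 and 215.0 CPM, with immunoglobulin making up 54.3% and 53.5% of their UMIs. Without mitochondrial, immunoglobulin and ribosomal protein UMIs the plasma cell values were 521.4 and 565.4 CPM, and the class stood in place 8 in both libraries in place of 13 of 15 and 11 of 17. Enterocyte-like cells (1816 and 1250), the absorptive cells of the villus, were near the bottom of the order with 212.6 and 171.3 CPM. Their intervals overlapped those of the class next below them in both libraries.

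**Figure D1:**
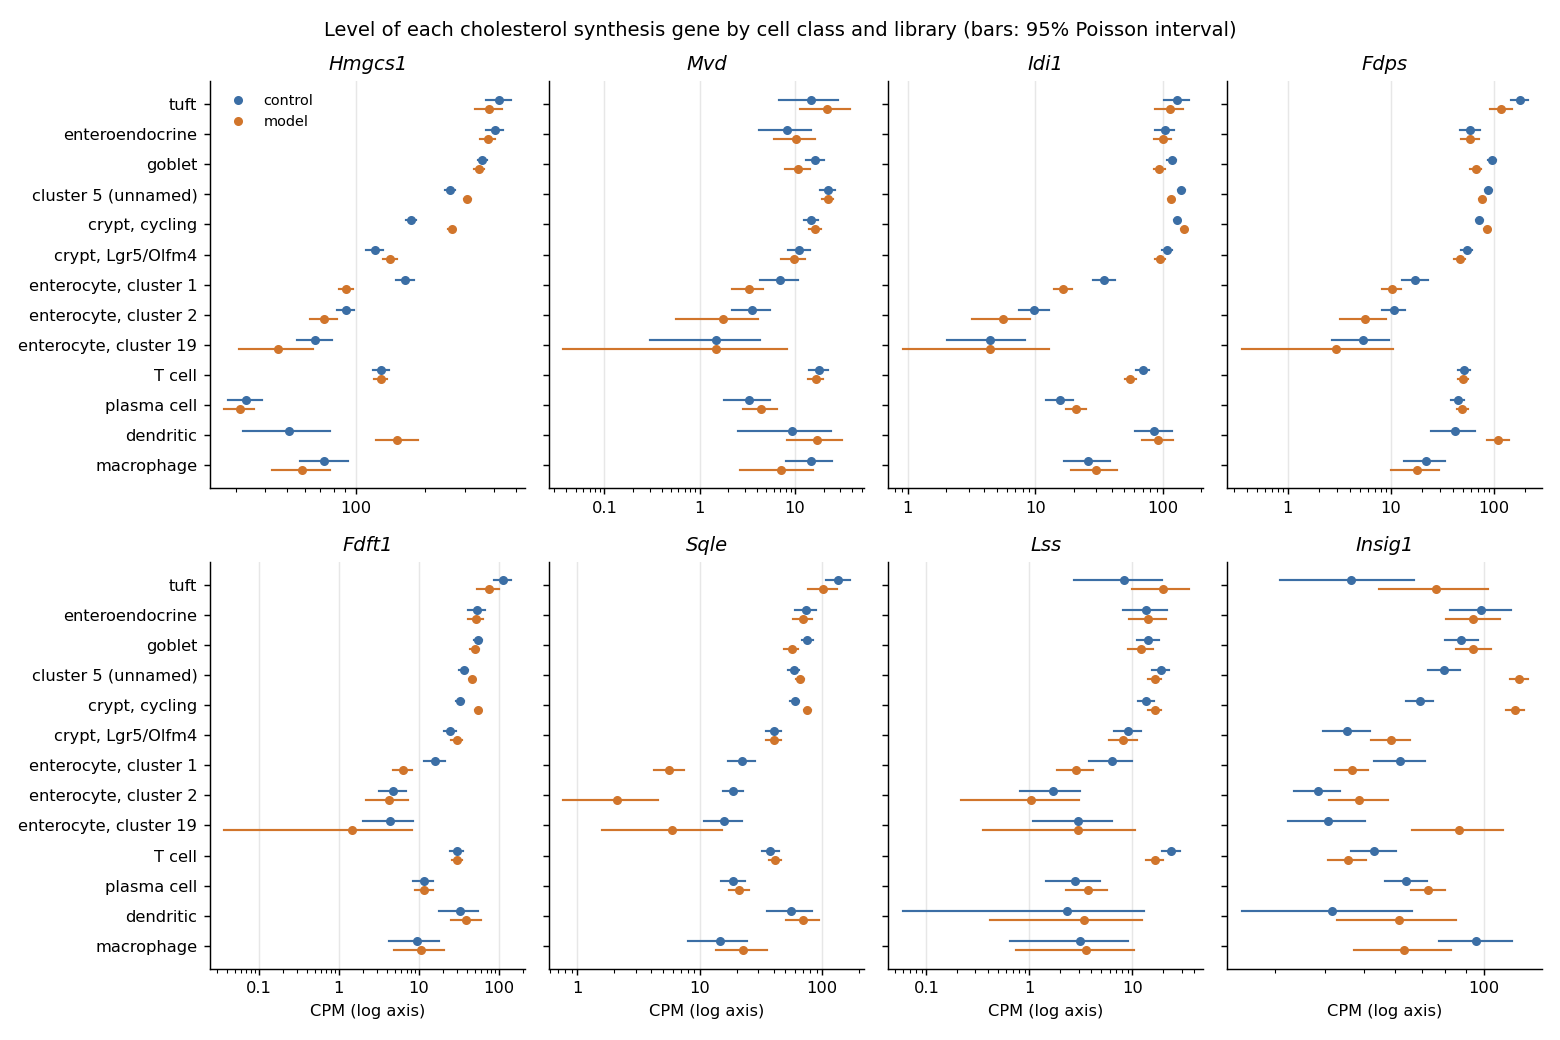
Level of each of the 8 genes (CPM, log axis, one panel per gene) in 13 cell classes or clusters, with control in blue and model in orange; points are class sums and bars exact Poisson 95% intervals. Hmgcs1 was at 356.6 and 344.6 CPM in goblet-like cells, well to the right of enterocyte cluster 19 at 66.2 and 45.6 CPM, and Sqle separated the libraries in enterocyte clusters 1 and 2.

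The genes did not share one order of cell classes. Among the 12 named classes with at least 50 cells in the control library, Hmgcs1, Idi1, Fdps, Fdft1 and Sqle were highest in tuft-like cells, with Fdps at 178.9 CPM there against 95.8 CPM in goblet-like cells. Mvd and Lss, by contrast, were highest in T cell-like cells, at 17.8 and 23.8 CPM. Insig1 was highest in enteroendocrine-like cells at 98.5 CPM and next in macrophage-like cells at 95.8 CPM. In plasma cell-like cells Insig1 stood at 64.0 CPM and Fdps at 44.6 CPM, while Hmgcs1 there was at its lowest among the classes, 32.9 CPM. Immunoglobulin made up 54.3% of the UMIs of these control cells, and the order for single genes was not redone without it. The order differed in part among the 14 named classes of the model library. Mvd and Lss were highest there in tuft-like cells, at 21.65 and 19.84 CPM on only 12 and 11 UMIs. Idi1 and Insig1 were highest in model crypt cells, at 130.6 and 100.9 CPM.

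Likeness across classes was measured as Pearson's r of log2(CPM + 10) over the 26 class and library sums of at least 50 cells (12 control, 14 model), among 6051 genes. The sums share libraries, depth and neighbouring cell types, so r is a description. Idi1 (r = 0.93), Sqle (0.91) and Fdft1 (0.89) each ranked 1 of all genes in likeness to the mean of the other 7. Insig1 was the least like the rest, with r = 0.48 and rank 1285, and Mvd ranked 301. Over the 28 pairs of the 8 genes, r ran from 0.288 to 0.930 with a median of 0.651. Among the other enzymes of the pathway, Msmo1 (0.86) and Cyp51 (0.86) came closest, while the late enzyme Sc5d reached 0.26. Both Msmo1 and Cyp51 act in the removal of methyl groups between lanosterol and cholesterol. Outside the pathway the closest 10 genes were Nt5c3 (0.87), Tsr1, Hes6, Ssu72, Hopx, Gvin-ps1, Ivns1abp, Ten1, Prkrip1 and Dpy30 (0.81).

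The comparison along the crypt to villus axis was made within each library. Crypt cells held more of the 8 transcripts than enterocytes, with a ratio of the sum of 8 of 2.42 (95% interval 2.30 to 2.53) for the control and 3.90 (3.73 to 4.09) for the model. In the control library 6 of 8 genes were called higher in crypt cells and in the model library 8 of 8, and none lower. Of all genes tested, 51.5% were called higher and 20.7% lower in the control, and 49% and 19.6% in the model library, so a call in this direction was common. The median log2 ratio of the 8 genes was 1.81 for the control and 2.79 for the model, beside 0.74 and 0.62 over all genes. Under TMM scaling, which removes such a shift of most genes, the summed log2 ratio was 0.54 in place of 1.27 in the control and 1.40 in place of 1.97 in the model library; with a mitochondrial limit of 10% the control value was 0.70.

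Of the 8 genes Idi1 had the largest ratio of crypt cells to enterocytes in the control and the next to largest, after Sqle, in the model library. Idi1 had 1716 UMIs in control crypt cells and 171 in control enterocytes, or 122.7 and 15.7 CPM, and 130.6 and 13.5 CPM in the model library. These gave ratios of 7.83 (6.69 to 9.22) and 9.68 (8.29 to 11.4). Fdps was 5.74 and 8.39 times higher in crypt cells, Fdft1 3.88 and 8.33 times, Lss 3.75 and 5.74 times, and Mvd 3.28 and 5.03 times. Hmgcs1 and Insig1 had the smallest ratios of the 8 in both libraries. Hmgcs1, the entry enzyme, was at 155.5 and 106.1 CPM in control crypt cells and enterocytes and at 224.8 and 84.1 CPM in those of the model library, ratios of 1.47 and 2.67. Insig1, the brake, was at 60.9 and 45.2 CPM and then at 100.9 and 49.3 CPM, ratios of 1.35 and 2.05.

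The gene with the widest gap between libraries was Sqle, which adds the oxygen that becomes the sterol hydroxyl. Its crypt level was 53.0 CPM in the control and 64.5 CPM in the model library, and its enterocyte level 19.1 and 4.86 CPM. The ratio of crypt cells to enterocytes was 2.78 (2.38 to 3.26) for the control and 13.3 (10.3 to 17.4) for the model, and these intervals did not overlap. Between libraries the enterocyte level differed by more than the crypt level.

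The other 14 enzymes of cholesterol synthesis were split. In crypt cells against enterocytes 8 were called higher and 2 lower in the control library, and 9 higher and 1 lower in the model library. Of all genes, 51.5% were called higher and 20.7% lower in the control, and 49% and 19.6% in the model, so these counts lay near the common share. The median log2 ratio of the 14 was 0.90 and 0.94, beside 0.74 and 0.62 over all genes. Acat2, which joins acetyl-CoA at the start of the pathway, was 8.26 times higher in crypt cells in both libraries, and Cyp51 3.65 and 6.16 times. Lbr, a sterol reductase of the nuclear envelope, was 23.3 and 15.7 times higher. The late enzyme Sc5d, which forms a double bond in the sterol ring, went the other way: it was at 45.8 CPM in control crypt cells and 98.6 CPM in control enterocytes (ratio 0.464), and its ratio in the model library was 0.565.

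Regulators and targets of the same system were measured beside them. The shares of all genes were again 51.5% higher and 20.7% lower in the control and 49% and 19.6% in the model. Of 8 SREBP machinery genes, 3 were called higher and 1 lower in control crypt cells, and 3 and 2 in those of the model. Their median log2 ratios were 0.28 and 0.10, beside 0.74 and 0.62 over all genes. Of 6 other SREBP-2 targets, 3 were called higher and 2 lower in the control, and 3 and 1 in the model. Srebf2, the gene of SREBP-2, was 2.42 and 2.78 times higher in crypt cells, and Scap, its escort, 2.41 and 2.66 times. The SREBP-2 target Tmem97 was 10.7 and 6.18 times higher. Insig2, the second sterol-regulated retention factor, was lower in crypt cells (0.404 and 0.542). Genes of esterification, uptake and efflux lay on the villus side, with 8 of 9 tested called lower in crypt cells for the control and 6 of 10 for the model. In each library 1 was called higher. Npc1l1, the brush-border importer of cholesterol, was at 34.7 CPM in control crypt cells and 666.7 CPM in control enterocytes. Of 7 fatty acid synthesis genes tested, 5 were called higher and 1 lower in crypt cells in each library, beside the shares of all genes given above. Fasn was 13.1 and 16.8 times higher.

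**Figure D2:**
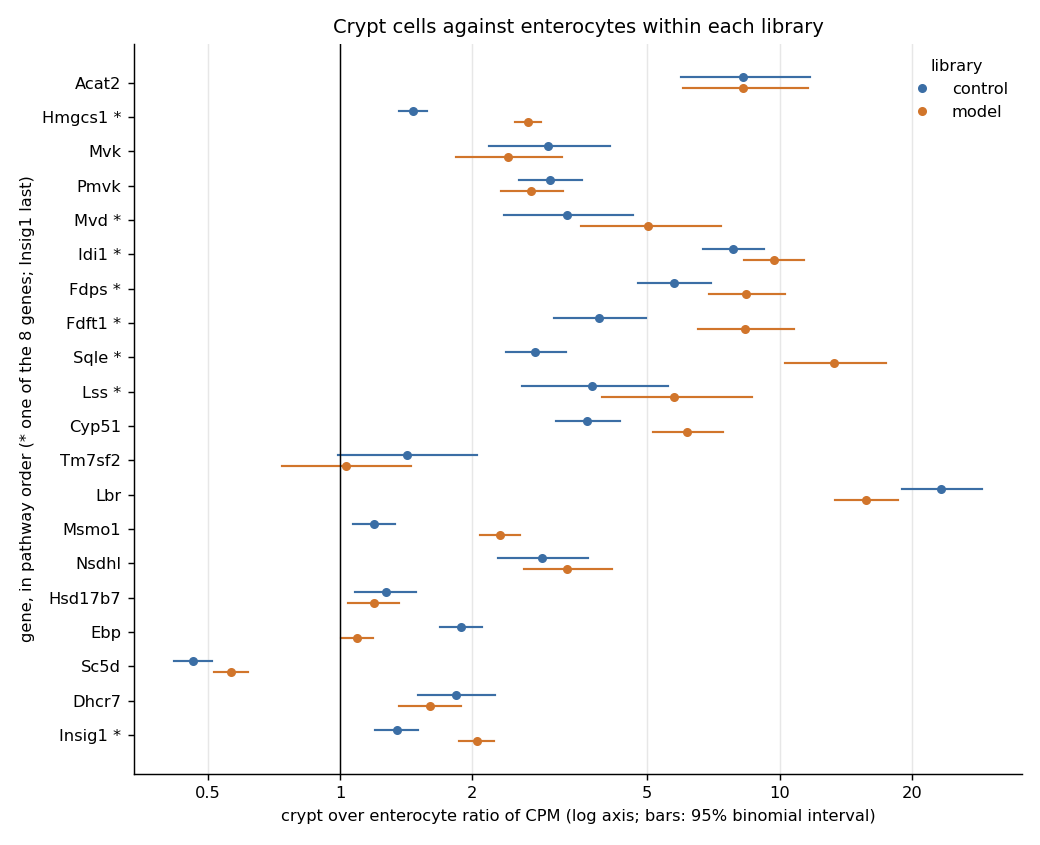
Ratio of crypt to enterocyte CPM (log axis) for the 8 genes, marked with a star, and 12 other enzymes in pathway order, control in blue and model in orange, bars exact binomial 95% intervals. Idi1 lay at 7.83 and 9.68, Sqle at 2.78 and 13.3, and Sc5d at 0.464 and 0.565, left of the line at 1.

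Goblet cells were compared with enterocytes of the same library. In both libraries 8 of 8 genes were called higher in goblet cells, beside 40.7% of all genes higher and 20.9% lower in the control and 31.4% and 19.2% in the model. The ratio of the sum of 8 was 3.86 (3.66 to 4.06) and 4.25 (4.02 to 4.49). Hmgcs1 was at 356.6 CPM in control goblet cells and 344.6 CPM in those of the model library, 3.36 and 4.10 times the enterocyte level. T cells against enterocytes had 6 of 8 genes called higher for the control and 7 of 8 for the model, beside 50.1% of all genes higher and 26.6% lower in the control and 48.7% and 27.9% in the model. Lss was 7.42 and 6.77 times the enterocyte level in T cells, while Insig1 was within 1.5 times of it in both libraries (1.17 and 0.925).

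Within the crypt class, 2 clusters could be compared: cycling cells led by Ube2c and Cenpf (cluster 7, 344 and 423 cells) and cells led by Olfm4 and Lgr5, markers of stem cells (cluster 13, 280 and 355 cells). The summed level was 566.2 CPM in cycling and 414.1 CPM in Lgr5 cells of the control library, and 777.2 and 428.6 CPM in the model library. The ratio of this sum of 8 was 1.37 (1.30 to 1.44) for the control and 1.81 (1.73 to 1.90) for the model. Of the 8 genes, 1 was called higher in cycling cells of the control, Insig1 at 1.52, beside 5.61% of all genes higher and 5.72% lower. In the model library 8 of 8 were, beside 6.75% higher and 5.9% lower. Cycling cells were deeper, with median UMI counts of 23010 and 22060 against 15480 and 12730.

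Between libraries, crypt cells of the model held more of several members. Hmgcs1 had 2175 UMIs for the control and 3899 for the model, 155.5 and 224.8 CPM, a ratio of 1.45 (1.37 to 1.52). Fdft1 was at 29.8 and 46.4 CPM, a ratio of 1.56 (1.38 to 1.76), and Insig1 at 60.9 and 100.9 CPM, a ratio of 1.66 (1.53 to 1.80). Those last 2 of 8 genes were called higher, beside 1.82% of all genes, and none was called lower, beside 3.75%. On the log2 scale Insig1 (0.73) fell short of a call with a mitochondrial limit of 10% (0.54), with resolution 2 (0.35) and with pathway genes allowed in clustering (0.56). Idi1, at 122.7 and 130.6 CPM, and Mvd, at 13.5 and 14.2 CPM, had intervals that included 1. The summed ratio was 1.30 (1.27 to 1.34).

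The 2 crypt clusters were then taken apart. In the cycling cluster the sum was 1.37 (1.33 to 1.42) times the control, and Hmgcs1 (173.9 and 262.7 CPM), Fdft1 (32.6 and 53.9 CPM) and Insig1 (69.1 and 120.0 CPM) were called higher, 3 of 8 beside 2.08% of all genes; none was called lower, beside 3.53%. In the Lgr5 cluster the sum was 1.03 (0.974 to 1.10) and 0 of 8 genes were called either way, beside 1.37% higher and 2.65% lower. Of the other enzymes, 0 of 14 were called in crypt cells, beside 1.82% of all genes higher and 3.75% lower. Their median log2 ratio was 0.02 beside -0.03 over all genes. Msmo1 came nearest at 60.1 and 83.0 CPM, a ratio of 1.38. The summed level of 16 cell cycle genes in the cycling cluster was 2817 and 2805 CPM, and the mitochondrial share 6.44% and 5.17%. In the same cluster 12 of 12 enterocyte markers were seen in both libraries and summed to 1960 and 2567 CPM, and 8 of 8 Paneth markers summed to 117.1 and 34.0 CPM; their part in the result was not tested. With finer clustering (resolution 2) the crypt sum was 0.14 on the log2 scale in place of 0.38, and Fdft1 was at 0.48 in place of 0.64. Fdft1 was also short of a call as a mean over cells (0.37), with clusters weighted equally (0.55), over 20 draws thinned to 1000 UMIs per cell (0.32) and in a single such draw (-0.038).

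Cluster 5, the Gsdmc4-led epithelial cells, held more Insig1 in the model library. It was at 79.5 CPM in the control and 122.5 CPM in the model library, a ratio of 1.54 (1.39 to 1.71). None of the other 7 genes was called there, beside 2.18% of all genes higher and 4.34% lower. Hmgcs1 was at 259.0 and 307.0 CPM. Idi1, at 140.3 and 116.2 CPM, lay below 1 with a ratio of 0.828 (0.759 to 0.904).

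Enterocytes differed most in Sqle. It had 208 UMIs in 1816 control cells and 62 in 1250 model cells, 19.1 and 4.86 CPM, a ratio of 0.255 (0.189 to 0.340). Sqle was the only one of the 8 genes called lower, beside 9.21% of all genes, and none was called higher, beside 14.9%. Without the 3 cells with the most Sqle in each library the ratio was 0.247. Under 14 alternative settings its log2 ratio ran from -3.15 to -1.57. Insig1 was at 45.2 and 49.3 CPM, a ratio of 1.09 with an interval that included 1. Among the other enzymes, Ebp was at 42.3 and 75.7 CPM, called higher (1.79), and Cyp51 at 15.8 and 10.51 CPM, called lower (0.663).

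The summed level in enterocytes gave no firm direction. Its ratio was 0.806 (0.760 to 0.855) over pooled UMIs, or -0.31 on the log2 scale. As a mean over cells it was -0.04, and thinned to 1000 UMIs per cell it was 0.21 in a single draw and -0.06 over 20 draws. The lowest value was -0.58, with a mitochondrial limit of 10%, and 13 of 14 alternatives kept the sign of the main value. Most of this sum came from Hmgcs1 (49.9% of control and 49.1% of model UMIs) and Insig1 (21.3% and 28.8%). Of the 8 genes, 7 had ratios below 1, Hmgcs1 at 0.792 among them. Insig1, which is not an enzyme, was the 1 above, at 1.09 with an interval that included 1. A sum without Insig1 was not tested. The 3 enterocyte clusters held different shares of each library. Cluster 1, led by Reg1 and Gsta1, made up 10.2% of control and 51.0% of model enterocytes. Cluster 2, led by Cubn, made up 62.8% and 37.4%, and cluster 19, led by Clca4a and Ada, 27.0% and 11.6%. Median depth was 4269 UMIs per control and 7058 per model enterocyte, and the mitochondrial share 15.1% and 11.4%.

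Within cluster 1 (186 control and 638 model cells) nearly the whole list was lower in the model library. The sum was 329.2 CPM in the control and 182.1 CPM in the model library, a ratio of 0.553 (0.511 to 0.599). Called lower were 7 of 8 genes, beside 3.36% of all genes, and none higher, beside 2.41%, from Fdps at 0.587 to Sqle at 0.256 (22.1 and 5.64 CPM). Hmgcs1 was at 164.1 and 90.5 CPM and Idi1 at 34.8 and 16.6 CPM. Insig1, at 61.8 and 46.8 CPM (0.757), was the gene left uncalled.

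Other enzymes lay on the same side in that cluster. Of 14, 13 were below 1 and 5 were called lower, beside 3.36% of all genes, and none higher, beside 2.41%. Called lower were Cyp51 (0.342), Acat2 (0.472), Nsdhl (0.541), Pmvk (0.544) and Msmo1 (0.604). The median log2 ratio of the 14 was -0.36 beside -0.03 over all genes. Of 8 SREBP machinery genes, 4 were below 1 and 4 above, with a median log2 ratio of 0.01. Only Srebf2 among them was called, lower at 0.596. Of 6 fatty acid synthesis genes tested, 3 were below 1 and 3 above, with a median of -0.26. Fasn (0.487) and Elovl6 (0.532) were called lower and none higher, beside the shares of all genes given above. The depth of cluster 1 was close between libraries (median 15280 and 13710 UMIs), and so were the mitochondrial shares (9.54% and 8.60%), the crypt marker sum (43.8 and 41.8 CPM) and the summed cell cycle genes (107.6 and 115.9 CPM). Goblet markers (8 of 9 seen, Spdef at 0) summed to 323.5 and 193.8 CPM and plasma cell markers (8 of 9 seen, Mzb1 at 0) to 1074 and 557.9 CPM. Paneth markers (8 of 8 seen in the control, 7 of 8 in the model with Defa22 at 0) summed to 123.7 and 27.2 CPM, and enteroendocrine markers (8 of 10, Neurod1 and Pcsk1n at 0, and 10 of 10) to 40.1 and 64.1 CPM. The share of villus tip among tip and bottom transcripts was 22.6% and 14.5%, and their part in the result was not tested.

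Cluster 2 (1140 and 467 cells) had a summed ratio of 0.793 (0.706 to 0.891). Sqle had 110 and 6 UMIs there, 18.7 and 2.10 CPM, a ratio of 0.112 (0.0404 to 0.253). Fdps was the other gene called, at 10.7 and 5.60 CPM (0.523), 2 of the 7 tested beside 5.12% of all genes lower; none was called higher, beside 6.58%. The villus tip share of cluster 2 was 38.3% and 53.8%, Paneth markers (8 of 8 seen, then 7 of 8 with Defa22 at 0) summed to 349.8 and 68.5 CPM, and T cell markers (7 of 9, Cd5 and Cd2 at 0, then 8 of 9, Cd2 at 0) to 82.9 and 172.4 CPM; their part in the result was not tested. In cluster 19 (490 and 145 cells) the sum was 1.07 (0.848 to 1.35), and Insig1 was called higher, at 40.7 and 86.8 CPM (2.13, 1.501 to 3.01), 1 of the 3 genes tested beside 6.74% of all genes; neither of the other tested genes, Hmgcs1 and Sqle, was called lower, beside 8.25%. Sqle there rested on 32 and 4 UMIs. Insig1 gave 83 of the 288 control UMIs of the cluster 19 sum and 59 of the 103 model UMIs. Hmgcs1 in that cluster was at 0.689 (0.450 to 1.02).

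**Figure D3:**
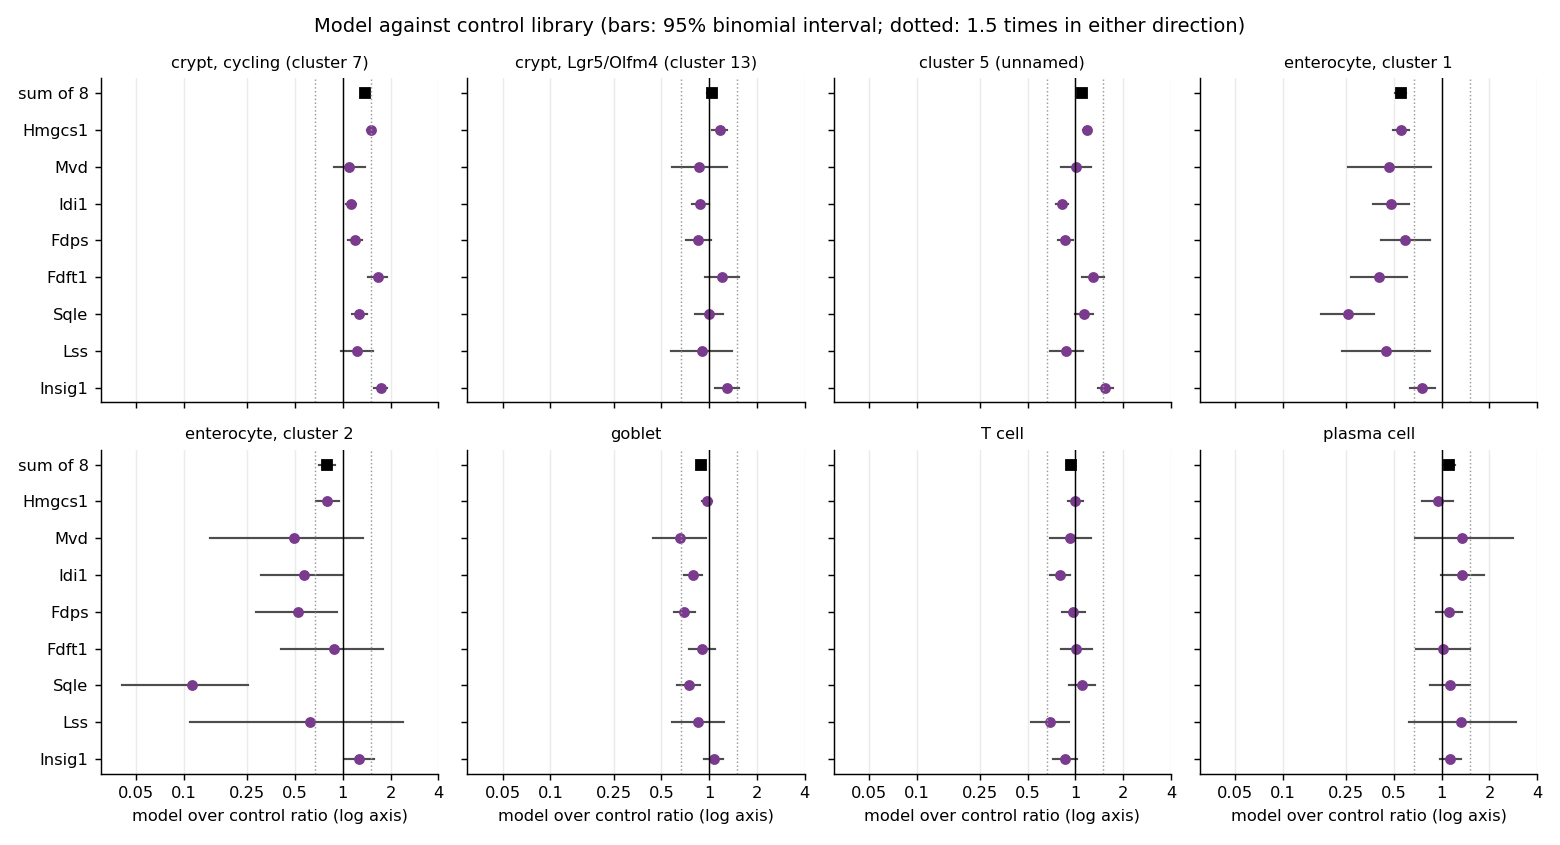
Model over control ratio (log axis) of the sum (square) and of each of the 8 genes (circles) in 8 cell classes or clusters; bars are exact binomial 95% intervals and dotted lines mark 1.5 times in either direction. The cycling crypt cluster lay right of 1 with a sum of 1.37 and enterocyte cluster 1 left of 1 with a sum of 0.553, and Sqle was at 0.256 and 0.112 in enterocyte clusters 1 and 2.

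Enterocytes were also ordered by the share of villus tip among tip and villus bottom transcripts, in 5 bins of all 3066 cells. The score leans on few genes: Apoa4 gave 62.0% of the tip UMIs for the control and 66.7% for the model, and Reg3b 60.3% and 73.3% of the bottom UMIs. Reg3b itself differed between the libraries, 10020 and 23940 CPM over all enterocytes, so equal bins may not be equal positions. In the control library the sum was 317.7 CPM in the bottom bin, then 258.8, 187.0 and 134.9 CPM, and 146.7 CPM in the tip bin. In the model library it was 187.1, 172.9, 141.9, 136.2 and 154.4 CPM. Insig1 gave 79 of the 749 control UMIs of the sum in the bottom bin and 98 of 247 in the tip bin. In the model library it gave 241 of 1072 and 106 of 201. The intervals of the sum lay apart between the libraries in the 3 lower bins and overlapped in the upper 2.

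Single genes had different profiles along the villus. Hmgcs1 went from 161.2 to 65.3 CPM in the control and from 90.8 to 54.6 CPM in the model library. Idi1 went from 35.6 to 3.56 CPM in the control and from 20.1 to 2.31 CPM in the model library, with 14.0 CPM in bin 4. Fdps went from 21.6 to 5.35 CPM in the control and from 10.7 to 4.61 CPM among model cells. Sqle was at 38.2, 19.5, 15.8, 10.1 and 8.32 CPM in control bins and at 7.51, 2.96, 2.03, 1.16 and 3.84 CPM in model bins. Control Sqle was above model Sqle in each of the 5 bins; intervals overlapped in bins 4 and 5, where the model values rest on 1 and 5 UMIs. Insig1 had no steady profile in the control, at 33.5, 51.8, 44.6, 42.2 and 58.2 CPM from bottom to tip. In model bins it was at 42.1, 50.8, 47.3, 46.6 and 81.4 CPM. By cluster, control Insig1 was at 61.8 CPM in cluster 1, 38.4 CPM in cluster 2 and 40.7 CPM in the tip-side cluster 19. Model Insig1 was at 46.8, 48.6 and 86.8 CPM in the same clusters.

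Depth and mitochondrial share moved with the bins. The median depth of the bottom bin was 5461 UMIs for the control and 14310 for the model, and of the tip bin 4200 and 4436. The mitochondrial share was 10.9% and 7.92% in the bottom and 18.6% and 19.4% in the tip bin. Their part in the profiles was not tested.

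**Figure D4:**
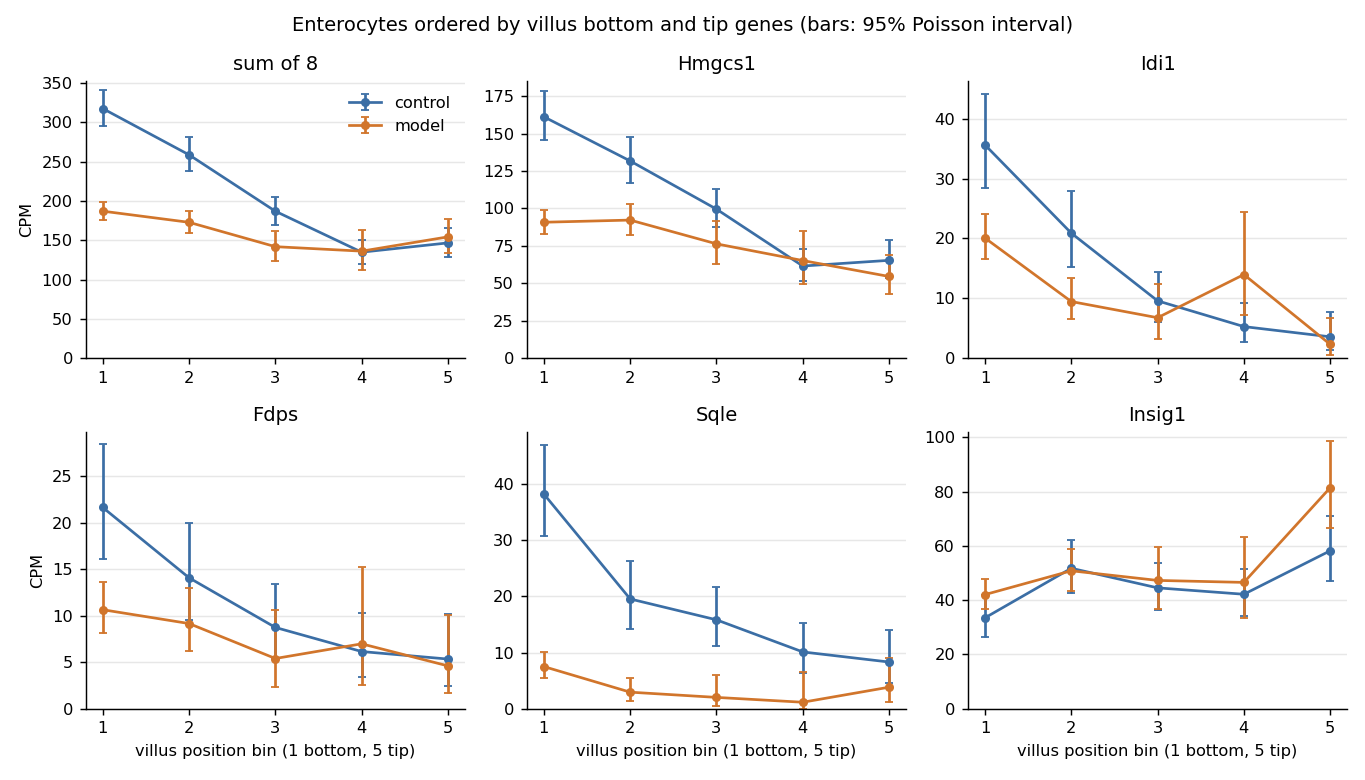
CPM of the sum of 8, Hmgcs1, Idi1, Fdps, Sqle and Insig1 in enterocytes of 5 villus position bins from bottom (1) to tip (5), control in blue and model in orange, bars exact Poisson 95% intervals. The control sum went from 317.7 to 146.7 CPM and the model sum from 187.1 to 154.4 CPM. Insig1 gave 241 of the 1072 UMIs of the model sum in bin 1 and 106 of 201 in bin 5. Its level was highest in the tip bin of both, but in the control that interval overlapped those of bins 2 to 4.

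Goblet cells of the model library held slightly less of the list. The sum was 819.6 and 728.3 CPM, a ratio of 0.889 (0.847 to 0.932). Mvd, with 79 and 44 UMIs, was the only gene called lower (16.3 and 10.7 CPM, 0.656), 1 of 8 beside 5.74% of all genes; none was called higher, beside 5.37%. That call was lost under TMM scaling (log2 ratio -0.57 in place of -0.61), with resolution 2 (-0.53) and without the 8% highest doublet scores (-0.44). Fdps was at 95.8 and 66.9 CPM (0.698) and Sqle at 75.5 and 56.2 CPM (0.744), both short of 1.5 times. Hmgcs1 (0.966) and Insig1 (1.07) had intervals that included 1. Of the 14 other enzymes, 1 was called lower, Pmvk at 0.613. The enterocyte markers, 12 of 12 seen in goblet cells of both libraries, summed to 5014 CPM in control and 13500 CPM in model goblet cells, and 3 of 16 cell cycle genes were called lower; their part in the result was not tested.

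T cells differed little between the libraries. The sum was 412.3 and 384.7 CPM, a ratio of 0.933 (0.879 to 0.991), which was 0.06 on the log2 scale under TMM scaling in place of -0.10. No gene was called in either direction, beside 1.98% of all genes higher and 3.35% lower. Lss came nearest at 23.8 and 16.5 CPM (0.692, 0.527 to 0.909). Hmgcs1 was at 128.8 and 128.6 CPM and Fdft1 at 29.5 and 29.9 CPM. A lower sum was seen in T cell cluster 15, led by Ifng, Cd5, Icos and Cd40lg (157 and 395 cells), with 333.6 and 201.1 CPM (0.603, 0.488 to 0.745). Hmgcs1 (0.639), Idi1 (0.457) and Fdft1 (0.290, on 13 and 8 UMIs) were called lower there, 3 of 6 tested beside 4.05% of all genes, and none higher, beside 2.67%. In cycling T cells (cluster 11, 56 and 81 cells) Sqle, on 8 and 32 UMIs, was at 17.3 and 60.3 CPM (3.49, 1.58 to 8.77) and Hmgcs1 at 90.7 and 160.1 CPM (1.77), both called higher, 2 of 6 tested beside 3.59%, while Idi1 was called lower at 0.576, 1 of 6 tested beside 3.2%.

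Plasma cells had a summed ratio of 1.11 (1.02 to 1.22), and none of the 8 genes was called, beside 3.18% of all genes higher and 3.92% lower. Insig1, their leading member, was at 64.0 and 72.5 CPM and Fdps at 44.6 and 49.6 CPM. In cluster 4, with 460 control and 591 model plasma cells, the sum was 188.1 and 197.7 CPM. Its ratio of 1.05 (0.952 to 1.16) had an interval that included 1. Cluster 26 (36 and 71 cells), with summed cell cycle genes at 2654 and 3031 CPM, held 234.5 and 302.9 CPM of the 8 genes. Of 16 cell cycle genes 6 were called higher in plasma cells. The part of these genes and of the cluster shares in the sum was not tested.

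Tuft-like cells, on 77 and 59 cells, had Fdps at 178.9 and 119.1 CPM (0.666, 0.482 to 0.912) and Fdft1 at 111.0 and 74.0 CPM (0.666, 0.440 to 0.997) called lower. That was 2 of 7 tested genes, beside 6.55% of all genes, and none was called higher, beside 8.52%. Dendritic cell-like cells (83 and 95 cells) had a sum of 320.2 and 545.9 CPM, a ratio of 1.70 (1.39 to 2.10). Hmgcs1 had 22 and 89 UMIs there, 51.0 and 151.8 CPM (2.97, 1.85 to 4.98), and Fdps 18 and 65 UMIs (2.65, 1.56 to 4.76). These 2 of 6 tested genes were called higher, beside 5.58% of all genes, and none lower, beside 6.75%. Goblet markers in the dendritic cells summed to 3996 CPM in the control (8 of 9 seen, Spdef at 0) and 317.3 CPM in the model (7 of 9 seen, Spdef and Atoh1 at 0), and 8 of 8 dendritic cell markers to 1237 and 1100 CPM. Enterocyte markers there summed to 3947 and 1157 CPM (11 of 12 seen in each, Cubn at 0). Plasma cell markers summed to 2891 and 699.4 CPM (7 of 9 seen in each, Mzb1 and Tnfrsf17 at 0). Mast cell markers, 4 of 8 and then 6 of 8 seen, summed to 132.3 and 617.6 CPM. Median depth was 4342 and 6399 UMIs, and the part of these differences in the result was not tested.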

How the data were processed

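Transcripts of single cells of mouse small intestine were measured with the 10x Genomics droplet method in 1 control and 1 model library. The authors deposited whole-number UMI counts per gene and barcode, not normalised. The matrix headers name Cell Ranger 7.0.1, while Cell Ranger 4.0 and GRCm39 stand in the submitters' processing notes. Whether intronic reads were counted is not stated there. The members and lists were chosen with earlier results of these data known.

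Kept barcodes had 500 UMIs or more, 200 genes or more and no more than 25% mitochondrial UMIs. Cells, scaled to 10000 UMIs, were clustered in scanpy 1.11.5 on 2000 variable genes (mitochondrial, ribosomal protein, immunoglobulin, T cell receptor variable and all listed pathway genes left out), with 30 components, 15 neighbours and Leiden resolution 1, both libraries together. To be named, a cluster had to show 3 or more markers of a class at 2-fold in 10% or more of its cells, and 40% of the class's markers. The last limit was set after the data were seen and left 38 control and 54 model cells of cluster 17 out of the enterocytes. Scrublet called 0 doublets in either library, so it had not worked and none were removed; an alternative dropped the 8% highest scores. UMIs were summed per class and library and scaled to CPM. The genes named were the 8 members, the other enzymes with 20 or more UMIs in the class, and the 10 genes most like the members, among genes with enough UMIs in most class sums. Genes of other lists, and the clusters taken apart, were picked for the text after their values were seen. The ratio code was tested on simulated data. Alternatives covered the mitochondrial limit, thinning, scaling (TMM in edgeR 4.0.16), clustering and weighting. Some genes of the lists count in the totals and are not reported here by name.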

Additional observations from a re-analysis of the deposited data

Results flagged for a closer look

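Over pooled UMIs, the summed level of the 8 genes lay on opposite sides of 1 in different cell classes, each with an interval that excluded 1; the difference between classes was not tested and each class has 1 library per group. The model over control ratio of the sum was 1.30 in crypt cells and 1.11 in plasma cells, but 0.806 in enterocytes, 0.889 in goblet cells and 0.933 in T cells. In cluster 4, which held most plasma cells (460 control and 591 model), the interval included 1, with a ratio of 1.05 (0.952 to 1.16). The directions in enterocytes and T cells did not hold under every setting: on the log2 scale the enterocyte sum was -0.041 as a mean over cells, -0.060 over 20 thinned draws and 0.21 in a single draw, and the T cell sum 0.063 under TMM scaling. Hmgcs1 was at 1.45 in crypt cells and 0.792 in enterocytes. Fdps was at 1.11 in crypt cells, 0.761 in enterocytes and 0.698 in goblet cells. Sqle was at 1.22 in crypt cells, 0.255 in enterocytes and 0.744 in goblet cells. In the single thinned draw the enterocyte log2 ratios of Hmgcs1 and Fdps were 0.075 and 0.21, and crypt Fdps was -0.082 with resolution 2. Sqle kept its direction in crypt cells under 13, in enterocytes under 14 and in goblet cells under 12 alternatives, all that were run.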

How the results depend on the processing

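All values are log2 ratios of summed levels, model over control by class or crypt over enterocyte by library, unless a gene is named. No paired analysis was possible because the groups share only 1 replicate number, and no library could be left out. The main values were 0.38 (crypt), -0.31 (enterocyte), -0.17 (goblet), -0.10 (T cell) and 0.15 (plasma cell), and 1.27 (control) and 1.97 (model) for crypt over enterocyte. Among the sums and the genes called in the main setting, directions changed for the enterocyte sum, 0.21 in a single draw thinned to 1000 UMIs per cell. They also changed for crypt Fdft1, -0.038 in that draw in place of 0.64, and for the T cell sum, 0.063 under TMM scaling. The cause was not tested. Several genes not called in the main setting changed direction too. In the single draw enterocyte Mvd was at 1.1 in place of -0.55 and Idi1 at 0.38 in place of -0.22. Crypt Mvd kept its direction under 7 of 13 alternatives and goblet Insig1 under 7 of 12. The single draw also gave 0.56 for crypt, -0.63 for goblet and 0.47 for plasma cells, and 1.44 and 1.79 for crypt over enterocyte. A mean of 20 draws, added after the values of the single draw were seen, gave -0.060 for enterocytes, -0.40 for goblet cells, 0.32 for crypt Fdft1, and 1.40 and 1.85 for crypt over enterocyte. A mitochondrial limit of 10% gave 0.27 for crypt, -0.58 for enterocyte, -0.26 for goblet, and 0.70 and 1.55 for crypt over enterocyte; no limit gave 0.46 for crypt and -0.31 for goblet. TMM scaling gave 0.45 for crypt, -0.41 for enterocyte, and 0.54 and 1.40. Means over cells gave -0.041 for enterocyte, -0.38 for goblet, -0.21 for T cells, and 1.40 and 1.84. CPM without mitochondrial, immunoglobulin and ribosomal UMIs gave 1.42 and 2.13. Libraries clustered alone gave 0.47 for crypt and -0.25 for goblet. Resolution 2 gave 0.14 for crypt, and 1.12 and 1.56. The cluster with the most cells gave 0.46 for crypt, and 1.67 and 2.46. Pathway genes allowed in clustering gave 0.29 for crypt, -0.45 for enterocyte, -0.27 for goblet, and 1.07 and 1.80. Villus bins weighted equally gave -0.40 for enterocyte, and clusters weighted equally (added after the data were seen) -0.45 for enterocyte and 0.30 for crypt. The other 62 alternative values, of these sums and of the list medians, kept their direction and stayed within the 95% counting interval of the sum or the spread of the list. Enterocyte Sqle ran from -3.15 to -1.57 over 14 alternatives, and crypt Insig1 from 0.35 to 0.81 and Hmgcs1 from 0.27 to 0.78 over 13. Depth limits Mvd and Lss in enterocytes, with 31 to 45 UMIs per library.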
